A study of Homo sapiens with 6 samples.

Results

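The genes described here are 40 genes of homologous recombination, the Fanconi anaemia pathway and mismatch repair, given by symbol, and all 40 were found among the 21619 entries of the deposited tables. They were followed in HT1080 cells, a human fibrosarcoma line, whose polyA RNA was sequenced in 2 groups of 3 libraries. The control group is labelled PGK1 WT with the genotype WT Cell (WT), and the other group, labelled PGK1 OE, stably overexpresses phosphoglycerate kinase 1, a glycolytic enzyme (PGK1_OE). The sources used here do not say whether the WT cells carry an empty vector, whether the overexpressing line is a clone, or whether replicates were separate cultures, and the spread that the p-values rest on may therefore be technical.

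Homologous recombination copies the sister DNA molecule to mend a broken chromosome, mainly in the S and G2 phases of the cell cycle. Nucleases trim the broken end, the BRCA proteins and a family of paralogs help to build the filament that finds the matching sequence, and helicases and nucleases then separate the joined molecules. The Fanconi pathway feeds into it: a core complex of ubiquitin ligase subunits marks the FANCD2 and FANCI pair where a replication fork has met a crosslink. Mismatch repair removes copying errors behind the fork. Many genes of these pathways are known to be transcribed together with replication genes.

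The libraries held between 34425162 and 40538274 counts. PGK1 itself, which checks the labels, stood at 523, 527 and 519 CPM (read counts scaled to library size) in WT replicates 1, 2 and 3 and at 13340, 12221 and 12418 CPM in PGK1_OE replicates 1, 2 and 3. Of 12 mesenchymal markers 9 had a mean of at least 1 CPM, with VIM at 1890 ± 227 CPM (SD, n = 3) in WT. COL1A2 had no counts in WT, and the means of COL1A1 and THY1 were under 1 CPM in both groups. The summed level of 8 epithelial markers was 4.81 to 6.02 CPM in WT and 1.12 to 3.35 CPM in PGK1_OE, with EPCAM, KRT5 and KRT14 at 0 in every library. The sum of 6 leukocyte markers stayed at or under 2.18 CPM, with PTPRC and CD14 at 0. That of 5 endothelial markers lay between 4.39 and 5.89 CPM in WT and between 10.3 and 13.4 CPM in PGK1_OE. Of these 5, PECAM1 rose (means of 3.15 CPM in WT and 10.4 CPM in PGK1_OE). VWF, CDH5, KDR and TEK had lower means in PGK1_OE. A total of 71.2% of the 14322 entries tested changed (edgeR's quasi-likelihood test, Benjamini-Hochberg adjusted p under 0.05), with 35.4% rising and 35.8% falling.

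The question asked of the 40 genes was which of their mRNAs differed between PGK1_OE and WT cells. All 40 passed the filter on low counts, 28 rose, 6 fell and 6 did not pass the test. Among all entries tested, the shares that rose and fell were 35.4% and 35.8%. In 20 of the 40 the rise reached 2-fold or more, beside 12.0% of all entries tested, and in 0 of 40 a fall did, beside 12.1%. The median log2 fold change of the 40 was 1.10, with quartiles of 0.13 and 1.79, while the median of all entries was -0.02, with quartiles of -0.57 and 0.54. In 28 members all PGK1_OE values lay above all WT values, beside 37.9% of all entries, and in 7 they lay below, beside 38.5%. The steepest rise was that of RAD54L and the deepest fall that of RAD50. In bulk libraries, more cells in S or G2 phase and more mRNA per cell cannot be told apart.

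**Figure D1:**
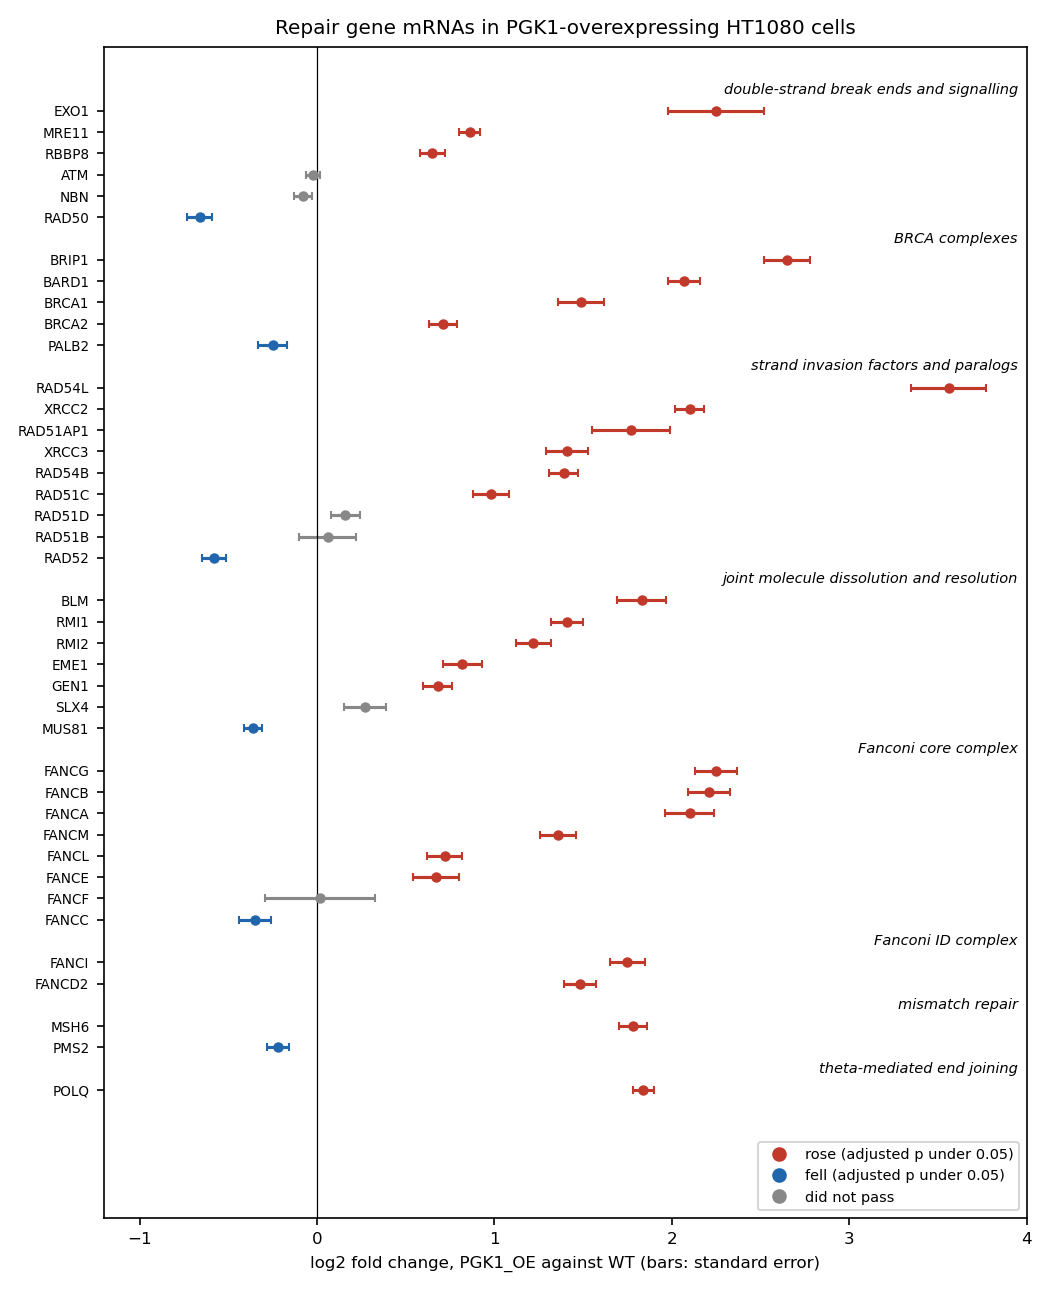
Log2 fold change of each of the 40 mRNAs (x axis, PGK1_OE against WT) by repair step, with bars of 1 standard error and colour for the edgeR call. The 28 rises reach 3.56 (RAD54L), while the 6 falls stay between -0.66 and -0.22.

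Among genes that sense and trim broken ends, the nuclease EXO1 rose most. EXO1 (chromosome 1, 241847967 to 241895148, plus strand of GRCh38) stood at 9.40, 5.15 and 8.99 CPM in the WT libraries and at 31.9, 37.0 and 43.0 CPM in the PGK1_OE libraries, a log2 fold change of 2.25 (SE 0.27, edgeR adjusted p = 7.50e-04). WT replicate 2 was the low library of its group, and the groups did not overlap. The MRE11, RAD50 and NBN proteins form 1 complex, and their mRNAs took 3 different courses. MRE11, its nuclease, was measured at 38.1, 37.7 and 41.8 CPM in WT and 67.2, 70.8 and 75.1 CPM in PGK1_OE (log2 fold change 0.86, SE 0.06, edgeR adjusted p = 1.49e-07). RAD50, the ATPase that tethers the ends (chromosome 5, 132556019 to 132646344, plus strand), went from 63.3, 69.4 and 66.0 CPM to 40.9, 38.3 and 46.9 CPM (-0.66, SE 0.07, edgeR adjusted p = 7.94e-06). For NBN, which recruits the ATM kinase, the WT values were 136, 135 and 134 CPM and the PGK1_OE values 118, 133 and 131 CPM. Its PGK1_OE libraries were all lower, by a margin set mainly by replicate 1, and the difference did not pass (-0.08, SE 0.05, edgeR adjusted p = 0.145). It passed with library totals in place of scaling factors (-0.13, edgeR adjusted p = 0.0289). On the log2(FPKM + 1) scale, where FPKM is the deposited value per gene length and library size, NBN was 0.10 (limma adjusted p = 0.345). RBBP8, the partner that switches on MRE11, rose from 34.2 ± 1.84 to 53.7 ± 4.42 CPM (SD, n = 3; 0.65, SE 0.07). ATM, the kinase that signals the break, stood at 175 ± 6.33 and 173 ± 1.45 CPM and did not pass (-0.02, SE 0.04, edgeR adjusted p = 0.717).

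The BRCA complexes rose with 1 exception. BRIP1, the helicase bound by BRCA1 and also known as FANCJ (chromosome 17, 61681266 to 61863521, minus strand), had 5.36, 4.70 and 5.63 CPM in WT and 26.7, 36.9 and 34.7 CPM in PGK1_OE, a 6.26-fold rise (log2 2.65 with SE 0.13, edgeR adjusted p = 1.48e-08). BARD1, the obligate partner of BRCA1 in its ubiquitin ligase, had 7.94, 8.55 and 7.62 CPM against 30.6, 36.7 and 33.9 CPM (2.07, SE 0.09, edgeR adjusted p = 2.95e-09). BRCA1 (chromosome 17, 43044295 to 43170245, minus strand) had 21.1, 15.2 and 21.5 CPM against 49.8, 56.2 and 56.2 CPM (1.49, SE 0.13, edgeR adjusted p = 3.24e-05). In all 3 genes the lowest PGK1_OE library, replicate 1 each time, was more than the highest WT library. BRCA2, which loads the filament onto DNA, rose less, from 20.3, 21.9 and 21.5 CPM to 30.9, 38.5 and 34.6 CPM (0.71, SE 0.08, edgeR adjusted p = 1.17e-05). PALB2, the bridge between BRCA1 and BRCA2, was lower in PGK1_OE, with 33.0, 35.6 and 28.8 CPM in WT and 26.6, 28.0 and 27.3 CPM in PGK1_OE (-0.25, SE 0.08, edgeR adjusted p = 0.0145). The PALB2 call did not survive leaving out WT replicate 1 (edgeR adjusted p = 0.0541), WT replicate 2 (0.0706) or PGK1_OE replicate 1 (0.0622).

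The proteins that work on the filament included the largest change of all 40 genes. RAD54L, the motor that helps to pair the broken strand with its template (chromosome 1, 46247688 to 46278473, plus strand), was counted 78, 55 and 109 times in the WT libraries and 1046, 1079 and 859 times in the PGK1_OE libraries. In CPM these are 2.06, 1.56 and 2.98 against 26.1, 27.2 and 24.4, an 11.8-fold rise (log2 3.56 with SE 0.21, edgeR adjusted p = 7.17e-07). The related gene RAD54B had 11.9, 11.7 and 13.2 CPM against 31.5, 32.9 and 31.8 CPM (1.39, SE 0.08, edgeR adjusted p = 1.81e-08). RAD54L was the scarcer of the pair of mRNAs in WT on the FPKM scale (0.681 against 4.50), and in PGK1_OE they stood at 7.73 and 9.75 FPKM. RAD51AP1, which stimulates strand invasion, had 16.3, 9.31 and 12.7 CPM against 38.5, 47.0 and 45.0 CPM (1.77, SE 0.22, edgeR adjusted p = 8.48e-04). RAD52, an annealing protein, went the other way, from 30.4, 29.5 and 30.6 CPM to 18.9, 20.7 and 21.1 CPM (-0.58, SE 0.07, edgeR adjusted p = 1.36e-05).

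The 5 paralogs RAD51B, RAD51C, RAD51D, XRCC2 and XRCC3, which stabilise the filament in small complexes, split into 3 that rose and 2 that did not pass. XRCC2 had 8.05, 8.57 and 8.39 CPM in WT and 34.1, 38.3 and 34.6 CPM in PGK1_OE (log2 fold change 2.10, SE 0.08, edgeR adjusted p = 8.70e-10). XRCC3 had 15.2, 10.6 and 12.4 CPM against 31.9, 33.2 and 36.3 CPM (1.41, SE 0.12, edgeR adjusted p = 2.27e-06). RAD51C, which pairs with XRCC3 in 1 complex and belongs to another with the remaining paralogs, had 13.1, 12.1 and 14.1 CPM against 22.7, 26.8 and 28.0 CPM (0.98, SE 0.10, edgeR adjusted p = 3.05e-06). These 3 genes had no overlap between groups, beside 37.9% of all entries that lay wholly above WT. RAD51D, the direct partner of XRCC2, had 35.4, 28.8 and 31.3 CPM against 34.7, 36.4 and 35.5 CPM (0.16, SE 0.08, edgeR adjusted p = 0.0879), and passed without WT replicate 1 (0.25, edgeR adjusted p = 0.0109). RAD51B had 7.07, 5.52 and 6.94 CPM against 6.47, 5.98 and 7.97 CPM (0.06, SE 0.16, edgeR adjusted p = 0.739), and its groups overlapped.

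Of 7 genes that take joined DNA molecules apart 5 rose, 1 fell and 1 did not pass. The shares of all entries that rose and fell were 35.4% and 35.8%. BLM, the Bloom syndrome helicase, had 10.6, 8.94 and 7.95 CPM in WT and 27.2, 35.0 and 35.8 CPM in PGK1_OE (log2 fold change 1.83, SE 0.14, edgeR adjusted p = 9.49e-07). Of the partners of BLM in the dissolving complex RMI1 and RMI2 rose. RMI1 had 12.4, 12.6 and 14.7 CPM against 33.7, 34.6 and 37.4 CPM (1.41, SE 0.09, edgeR adjusted p = 3.73e-08). RMI2 had 6.73, 7.61 and 7.81 CPM against 16.5, 16.9 and 18.0 CPM (1.22, SE 0.10, edgeR adjusted p = 7.50e-07). In each of BLM, RMI1 and RMI2 the groups stood apart. The topoisomerase of that complex, TOP3A, taken from the list of other recombination genes and named after its values were seen, had 104, 99.9 and 101 CPM against 101, 114 and 110 CPM and did not pass (0.10, SE 0.05, edgeR adjusted p = 0.0943). Among the nucleases that cut such molecules, GEN1 rose from 25.1 ± 2.40 to 40.1 ± 2.35 CPM (SD, n = 3; 0.68, SE 0.08). EME1, the regulatory subunit of the MUS81 nuclease, had 8.26, 8.49 and 9.34 CPM against 15.0, 16.6 and 14.4 CPM (0.82, SE 0.11, edgeR adjusted p = 2.76e-05). MUS81 itself, the catalytic subunit, had 65.2, 63.3 and 63.1 CPM against 50.4, 49.3 and 49.5 CPM (-0.36, SE 0.05, edgeR adjusted p = 2.57e-05). The 2 subunits therefore moved in opposite directions, each without overlap between groups. SLX4, the scaffold that gathers these nucleases, had 13.7, 10.8 and 11.0 CPM against 14.7, 13.1 and 15.0 CPM (0.27, SE 0.12, edgeR adjusted p = 0.0607). It passed without WT replicate 1 (0.39, edgeR adjusted p = 0.0133), without PGK1_OE replicate 2 (0.33, edgeR adjusted p = 0.0426) and with assembled loci left out (0.27, edgeR adjusted p = 0.0428).

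In the Fanconi core complex 6 of 8 genes rose, 1 fell and 1 did not pass. Of all entries, 35.4% rose and 35.8% fell. FANCG, FANCA and FANCB rose most. FANCG, an adaptor subunit (chromosome 9, 35073835 to 35080016, minus strand), had 11.6, 8.63 and 12.3 CPM in WT and 51.2, 51.0 and 52.7 CPM in PGK1_OE (log2 fold change 2.25, SE 0.12, edgeR adjusted p = 1.02e-07). FANCA, which binds FANCG, had 19.5, 14.0 and 13.3 CPM against 64.6, 67.6 and 69.1 CPM (2.10, SE 0.14, edgeR adjusted p = 1.21e-05). FANCB, the X-linked subunit that dimerises around the ligase (chromosome X, 14835961 to 14873069, minus strand), had 4.38, 3.90 and 4.04 CPM against 17.5, 18.2 and 21.3 CPM (2.21, SE 0.12, edgeR adjusted p = 1.38e-08). FANCM, the translocase that anchors the complex to DNA, had 13.4, 10.3 and 11.9 CPM against 31.3, 30.6 and 29.8 CPM (1.36, SE 0.10, edgeR adjusted p = 1.39e-07). These 4 genes rose over 2-fold, with every PGK1_OE library above every WT library. FANCL, the catalytic ligase subunit, rose from 20.2 ± 1.20 to 33.3 ± 4.39 CPM (SD, n = 3; 0.72, SE 0.10), and FANCE, which contacts FANCD2, from 9.47 ± 0.650 to 15.1 ± 2.30 CPM (0.67, SE 0.13). FANCC, the partner of FANCE, fell from 19.1, 22.6 and 19.2 CPM to 15.8, 15.8 and 16.1 CPM (-0.35, SE 0.09, edgeR adjusted p = 0.00397). FANCF, the adaptor of FANCC and FANCE, was the scarcest member on the FPKM scale. Its counts were 49, 66 and 47 in WT and 51, 77 and 45 in PGK1_OE, which leaves its fold change imprecise (0.02, SE 0.31, edgeR adjusted p = 0.965).

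Both genes of the pair that the core complex modifies rose. FANCI (chromosome 15, 89243949 to 89317261, plus strand) had 38.3, 30.6 and 41.0 CPM in WT and 121, 127 and 122 CPM in PGK1_OE (log2 fold change 1.75, SE 0.10, edgeR adjusted p = 1.55e-06). FANCD2 (chromosome 3, 10026414 to 10101930, plus strand) had 17.9, 15.0 and 18.6 CPM against 44.7, 49.3 and 50.5 CPM (1.48, SE 0.09, edgeR adjusted p = 2.63e-08). In both genes WT replicate 2 was the lowest library. FANCI ranked ninth of the 40 by FPKM in WT and first in PGK1_OE.

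The mismatch repair pair moved in opposite directions. MSH6, which recognises base mismatches, had 43.3, 45.3 and 43.5 CPM in WT and 133, 169 and 150 CPM in PGK1_OE (log2 fold change 1.78, SE 0.08, edgeR adjusted p = 1.36e-07). PMS2, the endonuclease subunit that nicks the new strand, had 32.2, 32.6 and 31.9 CPM against 28.1, 26.5 and 28.3 CPM (-0.22, SE 0.06, edgeR adjusted p = 0.00586). Both shifts left the groups apart. The PMS2 value is uncertain, because GENCODE lists 11 pseudogene copies of it, 0 of which stand in the count table under their names, and reads may be shared with them. POLQ, the polymerase of theta-mediated end joining, a pathway that competes with recombination for trimmed ends, had 20.1, 18.2 and 18.3 CPM against 64.6, 67.4 and 71.1 CPM (1.84, SE 0.06, edgeR adjusted p = 4.46e-10).

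**Figure D2:**
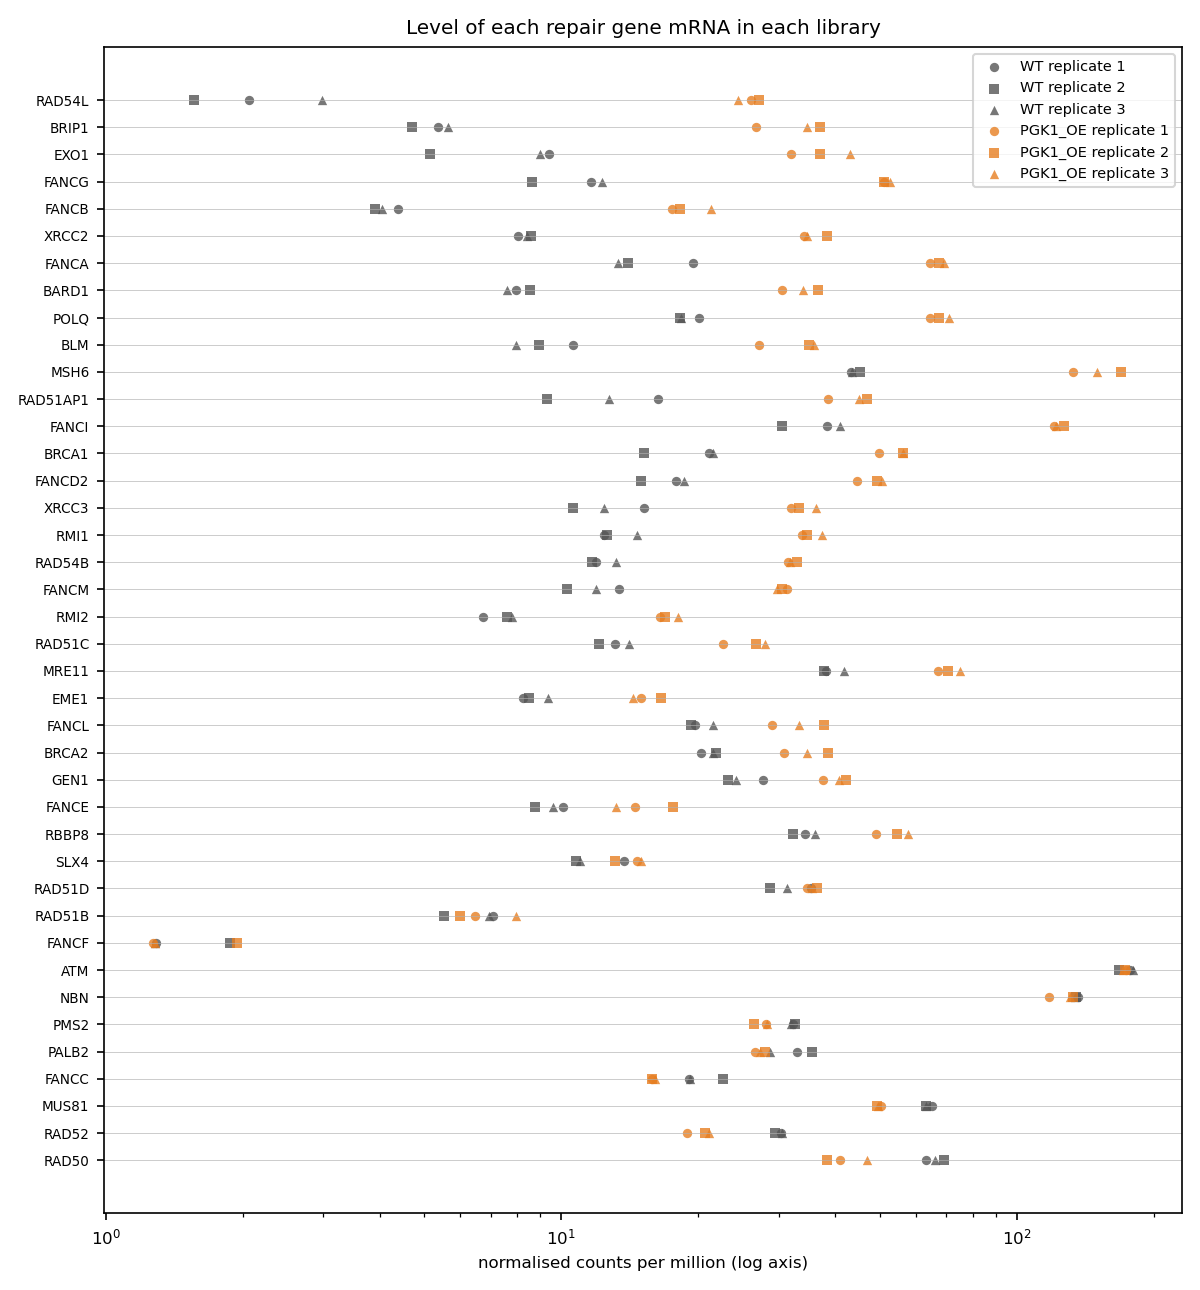
Normalised CPM (x axis, log scale) of each of the 40 mRNAs in each library, ordered by fold change, with grey for WT, orange for PGK1_OE and a symbol for the replicate number. From RAD54L down to RBBP8 all orange points lie right of all grey points, and for RAD50, RAD52, MUS81, FANCC, PALB2, PMS2 and NBN they lie left.

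Several values may include reads of a neighbour, since the strand setting of the counting is not given. A total of 16 members overlap a protein-coding gene of the table on the opposite strand: MRE11 (ANKRD49), NBN (DECR1), RAD50 (IL5), ATM (NPAT and C11orf65), XRCC3 (KLC1), RAD54L (LRRC41), RMI2 (SOCS1 and the protamine genes), MUS81 (CFL1 and EFEMP2), EME1 (LRRC59), GEN1 (SMC6), FANCA (ZNF276), FANCF (GAS2), FANCL (VRK2), FANCD2 (FANCD2OS), FANCI (POLG) and MSH6 (FBXO11). RAD54B overlaps FSBP on the same strand.

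Since many of these genes moved together, their start regions were read from RefSeq (GRCh38.p14), which gave 36 of the 40 a window of 250 bases before and 50 after the start. Of these 36, 8 held an E2F-type octamer (TTTCCCGC, TTTCGCGC, TTTGCCGC or TTTGGCGC, either strand), 22.2%, beside 3.31% of 35116 windows in the table and 4.10% of the 22199 windows of protein-coding genes. By call, 6 of 25 rising, 2 of 6 falling and 0 of 5 genes that did not pass held one. In the list of 15 replication genes described below, 10 of 14 windows did. For members and replication genes only the first listed window of a symbol was read, while the 35116 and 22199 count every window. Any other start of these genes was not read. The matches are printed because they show where in the window the octamer stands in rising and falling genes alike. Each line is 30 bases in the gene's direction with the octamer in capitals, and the start of transcription is position 1.
EXO1 (rose), chr1:241848197-241848226, plus strand, octamer from position 5: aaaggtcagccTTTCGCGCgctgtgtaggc
GEN1 (rose), chr2:17753859-17753888, plus strand, octamer from position 2: cagttgcggggTTTCGCGCcgccggagtct
MSH6 (rose), chr2:47783137-47783166, plus strand, octamer from position 4: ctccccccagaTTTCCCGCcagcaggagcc
FANCD2 (rose), chr3:10026424-10026453, plus strand, octamer from position -2: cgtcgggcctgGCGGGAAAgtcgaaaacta
XRCC2 (rose), chr7:152676102-152676131, minus strand, octamer from position 22: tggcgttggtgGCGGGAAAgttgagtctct
FANCA (rose), chr16:89816801-89816830, minus strand, octamer from position -172: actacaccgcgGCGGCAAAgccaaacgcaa
FANCC (fell), chr9:95317737-95317766, minus strand, octamer from position -46: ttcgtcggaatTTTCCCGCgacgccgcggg
FANCC (fell), chr9:95317863-95317892, minus strand, octamer from position -172: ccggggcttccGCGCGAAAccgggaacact
PMS2 (fell), chr7:6009131-6009160, minus strand, octamer from position -43: cgggaagtattTTTGCCGCcccgcccggaa
In 5 of the 6 rising genes the octamer lay within 30 bases of the start, and in FANCC and PMS2 it lay upstream. RAD54L, the steepest riser, held none.

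The pentamer CCAAT, the core of the NF-Y site, was in 15 of 36 windows (41.7%), beside 34.6% of all windows, with 10 of 25 rising genes, 3 of 6 falling genes and 2 of 5 that did not pass. The hexamer TTTGAA, a form of the CHR element of cell cycle genes, was in 4 of 36 (11.1%), beside 15.2%. Upstream sequences of BRIP1 and FANCM, a pair of risers with more than 1 CCAAT and no gene overlapping them, are printed with CCAAT or its reverse complement ATTGG in capitals.
BRIP1, chr17:61863529-61863778, minus strand: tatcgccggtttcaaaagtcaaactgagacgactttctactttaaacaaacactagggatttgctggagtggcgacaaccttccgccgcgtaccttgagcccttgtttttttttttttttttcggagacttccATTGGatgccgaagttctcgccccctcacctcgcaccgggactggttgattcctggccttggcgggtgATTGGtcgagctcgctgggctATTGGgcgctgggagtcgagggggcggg
FANCM, chr14:45135680-45135929, plus strand: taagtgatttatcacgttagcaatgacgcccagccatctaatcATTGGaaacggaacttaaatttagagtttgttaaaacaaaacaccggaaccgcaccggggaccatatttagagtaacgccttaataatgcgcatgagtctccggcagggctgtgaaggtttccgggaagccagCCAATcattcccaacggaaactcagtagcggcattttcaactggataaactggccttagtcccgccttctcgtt
BRIP1 held the pentamer 3 times, from positions -117, -49 and -28, and FANCM held it 2 times, from -207 and -74. A match is a description of letters, and binding was not measured.

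Levels of different genes were compared per length with the deposited FPKM. The 40 mRNAs summed to 235, 216 and 229 FPKM in the WT libraries and 373, 406 and 400 FPKM in the PGK1_OE libraries. The sum rose 2.97 times for FANCD2 with FANCI, 2.35 times for the Fanconi core complex, 2.00 times for the strand invasion factors and paralogs, and 1.89 times for the BRCA complexes. It rose 1.31 times for genes of joint molecules and 1.20 times for those of broken ends, where NBN and ATM make up much of the sum. In WT the most abundant mRNAs were MUS81 (27.5 ± 0.548 FPKM, SD, n = 3), NBN (23.1 ± 1.80), ATM (13.2 ± 0.222) and RAD52 (11.1 ± 0.337), none of which rose. In PGK1_OE the order was FANCI (25.6 ± 0.917), NBN (24.9 ± 2.95), MSH6 (23.6 ± 2.53) and MUS81 (21.5 ± 0.338). The first 3 do not differ beyond their spread, and the MUS81 values lay within the range of MSH6 (20.8 to 25.6 FPKM). Of the 20 members with the higher WT FPKM 11 rose and 6 fell, with a median log2 fold change of 0.69. Of the 20 with the lower WT FPKM 17 rose and 0 fell, with a median of 1.49. Over all entries tested, 35.4% rose and 35.8% fell. Across the 40 genes, WT log2 FPKM and log2 fold change had a Spearman rho of -0.57 and a Pearson r of -0.55, a description only, since both values rest on the same WT libraries.

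**Figure D3:**
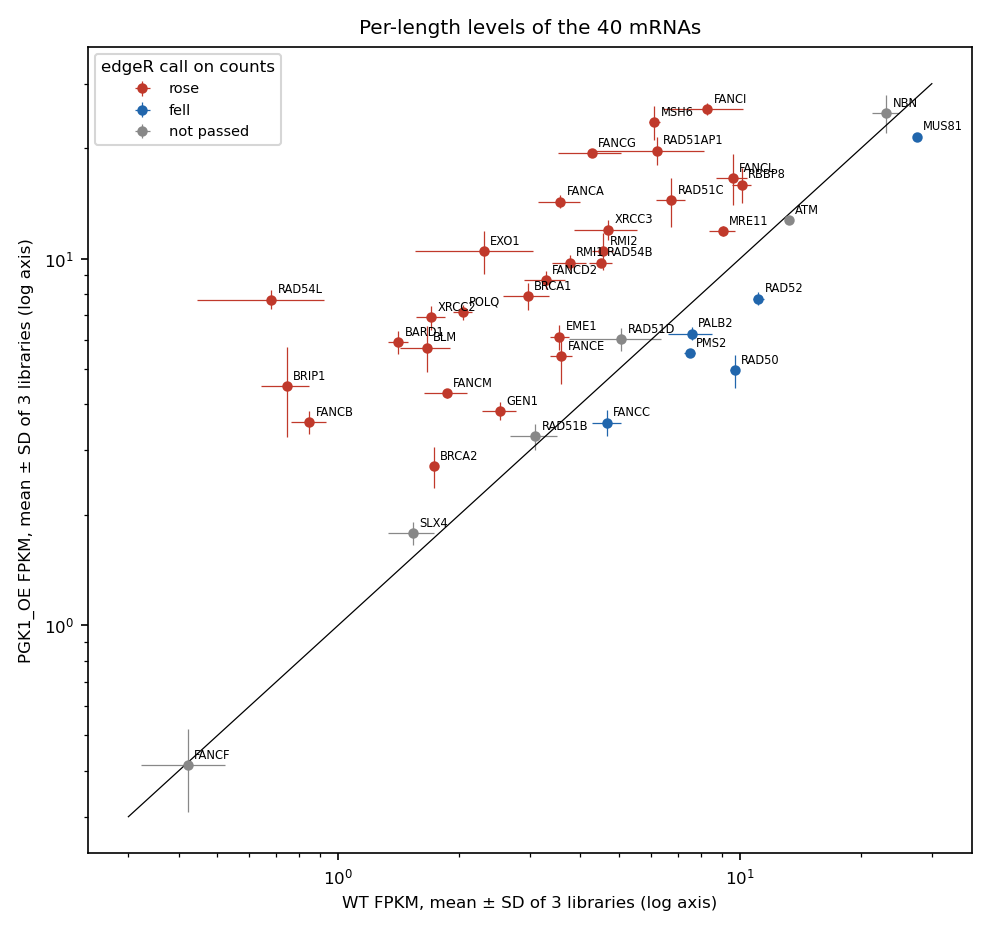
Mean deposited FPKM of each of the 40 mRNAs in WT (x axis) and PGK1_OE (y axis), both on log scales, with bars of 1 SD over 3 libraries and the line of equal level. RAD54L and BRIP1 lie farthest above the line, FANCI, MSH6 and FANCG also lie above it, and MUS81, RAD52 and RAD50 lie below it.

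For 17 pairs of genes whose products act in 1 complex or contact each other, the ratio of FPKM was taken in each library, which does not depend on library scaling. With 3 libraries against 3, the smallest p that the exact two-sided permutation test can give is 0.10, so none of the 17 ratios could pass 0.05. Groups that stand apart are common here, since 37.9% of single entries lay wholly above WT in PGK1_OE and 38.5% wholly below. The share among ratios of other gene pairs was not counted. The ratio of MRE11 to RAD50 was 0.938, 0.854 and 1.01 in WT and 2.44, 2.58 and 2.25 in PGK1_OE (exact permutation p = 0.10, adjusted p = 0.155). The MRE11 and RAD50 mRNAs were near level per length in WT, and MRE11 was the more abundant of them in every PGK1_OE library. EME1 to MUS81 was 0.122, 0.128 and 0.137 against 0.281, 0.306 and 0.268, so MUS81 remained the more abundant mRNA in both groups. RAD51D to XRCC2 was 4.15, 2.33 and 2.58 against 0.925, 0.741 and 0.962. BRCA1 to BRIP1 was 4.06, 3.99 and 3.92 against 2.30, 1.49 and 1.70. In these 4 pairs the groups did not overlap. FANCC to FANCE was 1.16, 1.52 and 1.24 against 0.744, 0.526 and 0.749, and BRCA2 to PALB2 was 0.234, 0.206 and 0.253 against 0.390, 0.474 and 0.439. The groups also stood apart for BRCA1 to BARD1, RAD51B to RAD51C, FANCB to FANCL, FANCM to FANCF and, by a narrow margin, FANCD2 to FANCI (0.353 to 0.450 against 0.333 to 0.350). They overlapped for RMI2 to RMI1, BLM to RMI1, FANCA to FANCG, RAD51C to XRCC3, NBN to MRE11 and RBBP8 to MRE11. With CPM in place of FPKM the groups stood apart for 4 of these 6 pairs: the log2 change of NBN to MRE11 was -0.94 in place of -0.29, that of RBBP8 to MRE11 turned from 0.26 to -0.21, and RMI2 to RMI1 (-0.20) and RAD51C to XRCC3 (-0.44) were lower in PGK1_OE on both scales. FANCA to FANCG, for example, was 0.844 ± 0.0887 in WT and 0.738 ± 0.0378 in PGK1_OE (SD, n = 3; exact permutation p = 0.20), while both genes rose over 4-fold.

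**Figure D4:**
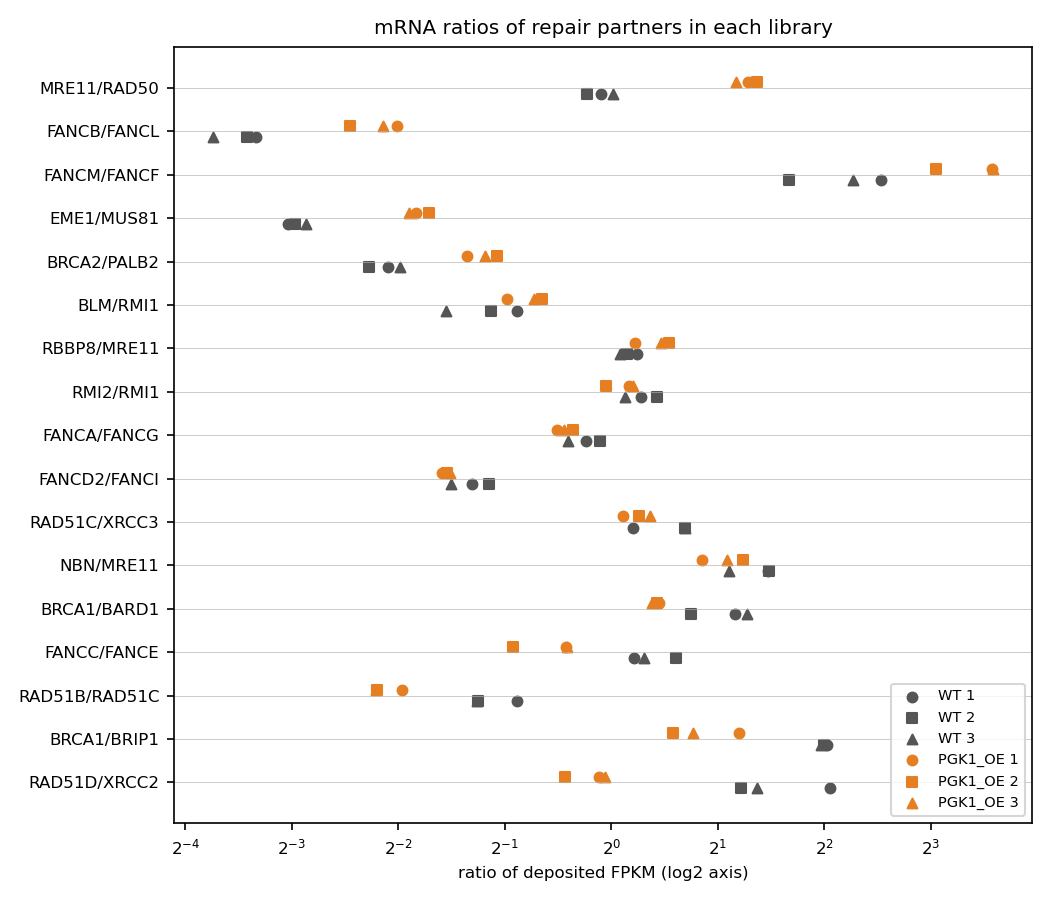
Ratio of deposited FPKM (x axis, log2 scale) for 17 partner pairs in each library, ordered by the change between groups, with grey for WT, orange for PGK1_OE and a symbol for the replicate number. The largest shifts are MRE11 to RAD50 upward and RAD51D to XRCC2 downward.

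The remaining genes of the 3 pathways were taken from lists. Of 30 tested genes of homologous recombination outside the 40, 17 rose and 7 fell (56.7% and 23.3%, median log2 fold change 0.40). Among all entries 35.4% rose and 35.8% fell. RPA1, a subunit of the protein that coats single-stranded DNA, rose by 1.67 (SE 0.05) and the end-trimming nuclease DNA2 by 2.56 (SE 0.10) on the log2 scale. BABAM2 (-1.02, SE 0.06), which belongs to a BRCA1 complex, and the helicases RECQL5 (-1.0, SE 0.06) and WRN (-0.78, SE 0.05) fell. Of 13 other Fanconi genes 9 rose and 4 fell (69.2% and 30.8%, median 0.60). UBE2T, which passes ubiquitin to FANCD2, rose by 2.75 (SE 0.12), the deubiquitinase USP1 by 1.65 (SE 0.07) and the ligase RFWD3 by 1.49 (SE 0.05). The core complex protein FAAP100 (-0.71, SE 0.07), the nuclease FAN1 (-0.50, SE 0.06) and FAAP20 (-0.33, SE 0.08) fell. Of 5 other mismatch repair genes 2 rose and 2 fell (40% and 40%, median 0.17). The falls were those of MLH3 (-0.87, SE 0.12) and PMS1 (-0.36, SE 0.06).

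Other repair routes are given for comparison, with no test between lists. Of all entries tested, 35.4% rose, 35.8% fell and 12.0% rose at least 2-fold. Of 15 genes of non-homologous end joining 5 rose and 4 fell (33.3% and 26.7%, median log2 fold change -0.03), and 0 rose at least 2-fold. XRCC5 (0.71, SE 0.04), XRCC6 (0.41, SE 0.04) and NHEJ1 (0.92, SE 0.09) rose, and LIG4 (-1.29, SE 0.06), POLL (-0.77, SE 0.06) and RIF1 (-0.26, SE 0.05) fell. Of 19 genes of nucleotide excision repair 6 rose and 8 fell (31.6% and 42.1%, median -0.12), which is near the shares of all entries. DDB1 (0.74, SE 0.04) and ERCC3 (0.53, SE 0.04) were among the rises and ERCC2 (-1.56, SE 0.05) and GTF2H3 (-1.42, SE 0.04) among the falls. Base excision repair had 11 rises and 5 falls among 20 genes (55% and 25%, median 0.49), including PARP1 (1.57, SE 0.05), NEIL3 (2.39, SE 0.15) and, downward, LIG3 (-0.84, SE 0.06). All 15 replication genes rose (median 2.00), as did all 15 mitosis genes (median 1.57), beside 35.4% of all entries. Both lists were chosen with earlier results of these data known, so these counts are a description only. PCNA, the sliding clamp, went from 26.2 ± 1.32 to 229 ± 7.08 CPM, and BUB1, a mitotic checkpoint kinase, from 62.9 ± 1.48 to 172 ± 3.80 CPM (SD, n = 3). Whether the repair gene changes follow those of the replication and mitosis genes was not tested.

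**Figure D5:**
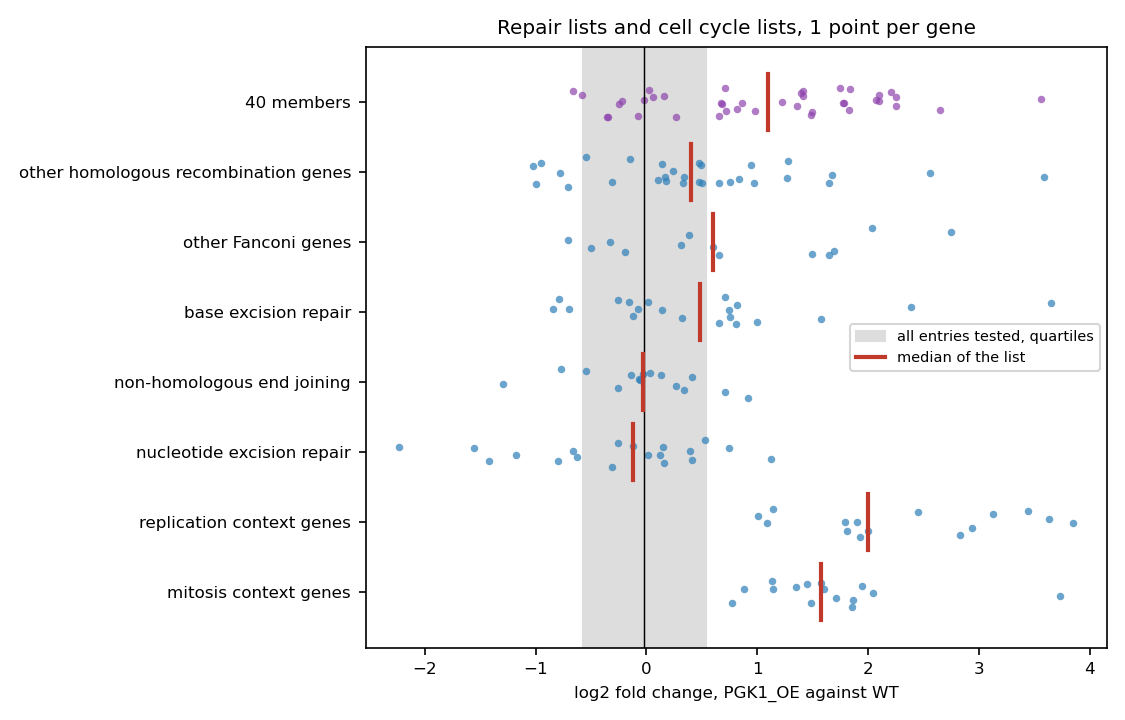
Log2 fold change (x axis, PGK1_OE against WT) of each tested gene of the 40 members and 7 other lists, 1 point per gene, with a red bar at each median and a grey band for the quartiles of all 14322 entries. The medians of the 40 members (1.10), the replication list (2.00) and the mitosis list (1.57) lie right of the band, and those of the other 5 lists lie in it or, for other Fanconi genes (0.60), just beyond it.

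Within groups the same library was often the lowest in the lists of rising genes given here. How often it was the lowest over all entries was not counted. Among the 28 rising members WT replicate 2 was the lowest WT library in 19, and it was the lowest in 14 of 15 replication genes and 14 of 15 mitosis genes. The 28 mRNAs summed to 467, 414 and 465 CPM in the WT libraries, where the replication genes summed to 508, 430 and 512 CPM. PGK1_OE replicate 1 was the lowest of its group in 23 of the 28 and in 13 of 15 replication genes, but in 6 of 15 mitosis genes. The 28 summed to 1172, 1317 and 1295 CPM in the PGK1_OE libraries, and the replication genes to 2032, 2287 and 2201 CPM. The sums of the 2 groups did not overlap.

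The count and FPKM tables differed for some members. For this comparison CPM was taken from library totals alone, without the scaling factors behind the CPM values given above. CPM divided by FPKM is in effect a transcript length in kilobases, and its log2 change between groups lay between -0.10 and 0.17 for the 10544 entries with at least 1 FPKM in every library, from the 5th to the 95th percentile. For MRE11 it was 4.36, 4.55 and 4.30 in WT and 5.55, 6.04 and 5.99 in PGK1_OE (0.41 on the log2 scale), so its rise was 0.86 by counts and 0.40 by FPKM. For RAD50 it was 6.80, 7.16 and 6.86 against 8.23, 8.43 and 8.40 (0.27), and its fall was -0.66 by counts and -0.97 by FPKM. NBN changed the other way (5.59, 5.86 and 6.43 against 5.40, 4.84 and 4.92, a change of -0.24). In all, 10 of the 36 members with at least 1 FPKM in every library lay outside that range. By definition, the entries under the 5th and over the 95th percentile lie outside it too. The other members outside it were RAD54B (0.23), PMS2 (0.17, just beyond the limit before rounding), MSH6 (-0.20), RAD51D (-0.17), RAD51C (-0.15), RAD52 (-0.11) and FANCL (-0.11). The groups overlapped for RAD51D and FANCL. The MSH6 value rested mainly on PGK1_OE replicate 1 (5.11, beside 6.83 and 7.13 in replicates 2 and 3). The tool behind the FPKM values is not given in the sources used here, and how it set the length of each gene was not tested.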

How the data were processed

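PolyA RNA of 6 HT1080 libraries was analysed, 3 per group, grouped by sample title and matched to table columns through the descriptions. Fastp, HISAT and the build hg38 are named per the submitters' processing notes. The counter, strand setting, annotation and tool versions were not given in the sources used. The authors deposited whole-number read counts per gene without normalization, and FPKM values scaled by them for length and library size. The 40 members and all lists were chosen with earlier results of these data known.

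Counts of all 21619 entries were filtered with filterByExpr (14322 left), scaled by TMM and tested with edgeR 4.0.16 in R 4.3.3 by a robust quasi-likelihood fit with group as the only term. P-values are two-sided and adjusted by Benjamini-Hochberg over all 14322. SE is the log2 fold change over the square root of F. Every member was named, and of each other list up to 3 genes per direction with the smallest adjusted p. Some genes that this rule names are not reported here. Loci and overlaps are from GENCODE 29 on GRCh38.

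On simulated counts for this comparison (14162 genes, 200 changed), the test recovered 90.8% of genes set to a log2 change of 1 and 100% of those set to 2, with 5.56% of 198 calls false. In the data a far larger share was called, 71.2% of 14322 entries. Recovery at that share was not tested, and neither was the rate of false calls. Alternatives were other scaling (RLE, library totals, PGK1 left out), other filters, assembled loci left out, DESeq2 1.42.0, limma 3.58.1 (voom, and log2 FPKM with pseudocounts of 1 and 0.1), a replicate block, each library left out and an adjusted p under 0.01. Chi-square per degree of freedom of library pairs within a group was 7.93 to 15.2, so no library repeated another.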

Additional observations from a re-analysis of the deposited data

How the results depend on the processing

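Across 19 alternatives the number of the 40 genes that rose stayed between 28 and 30 and the number that fell between 5 and 7, and 33 of the 40 kept direction and side of the threshold in every alternative that gave them a value. Of 14322 entries, 10195 changed, and between 8831 and 10343 did so under the alternatives. Replicate numbers were shared by the groups in the labels, and same-numbered libraries deviated together little (correlations of -0.013, -0.013 and 0.095). These correlations cannot show whether such libraries were prepared together. With the replicate number as a block 28 members rose and 6 fell, and 9943 entries changed. Library totals in place of TMM moved the median log2 fold change of all entries from -0.02 to -0.06. Direction turned only for genes that did not pass: FANCF (-0.03 with library totals, -0.01 on log2(FPKM + 1) without a filter, and -0.07, -0.07 and -0.21 without WT replicate 1, WT replicate 3 and PGK1_OE replicate 2, with a range of -0.21 to 0.22 over the 6 libraries left out), NBN (0.10, 0.11 and 0.10 on log2(FPKM + 1), log2(FPKM + 0.1) and log2(FPKM + 1) without a filter), RAD51B (-0.03 without WT replicate 2 and -0.06 without PGK1_OE replicate 3, range -0.06 to 0.15) and ATM (0.01 without WT replicate 3, range -0.04 to 0.01). The cause was not tested. PALB2 was the only one of the 34 called members to lose its call, in 5 alternatives, among them log2(FPKM + 1) without a filter (limma adjusted p = 0.0696) and the stricter threshold. With CPM in place of FPKM the log2 change of the ratio of NBN to MRE11 went from -0.29 to -0.94, that of RBBP8 to MRE11 from 0.26 to -0.21, and that of MRE11 to RAD50 from 1.37 to 1.52. Counts limit FANCF most, with at most 77 in a library.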
